A study of Mus musculus with 11 samples.

Results

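The genes described here encode the subunits of the proteasome, the large protease that breaks down ubiquitin-tagged proteins. Rows of the count files were taken by symbol, as every Psma, Psmb, Psmc or Psmd gene followed by a number, leaving out the interferon-induced core subunits Psmb8, Psmb9 and Psmb10. That gave 36 of 24421 genes, of which 16 belong to the 20S core (Psma and Psmb), 6 are ATPases (Psmc) and 14 carry Psmd symbols of the lid or base. They were measured by RNA sequencing of the mouse hippocampus in 11 libraries. The PM group (n = 6) came from offspring of mothers given particulate matter at 200 µg per kg through the nose on gestational days 9, 12 and 15, and the vehicle group (n = 5) is labelled with normal saline. Pups were born on day 21, and hippocampi were taken at 14 to 18 weeks of age. The libraries fall into 2 deposit sets, with replicates 1 to 3 of each group in set 1, and vehicle replicates 4 and 5 with PM replicates 4 to 6 in set 2. The labels give no strain, sex, litter or animal per library, so p-values measure the spread between these libraries, which may be technical.

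As background, the 20S core is a barrel of stacked rings. Psma proteins form the outer rings, which gate the entry, and Psmb proteins form the inner rings, which carry the active sites. A 19S cap sits on the end of the barrel. The ring of Psmc ATPases in its base unfolds the substrate and threads it in, while Psmd proteins bind ubiquitin chains, scaffold the base and, in the lid, cut the chains off. In neurons proteasomes turn over synaptic proteins, and synaptic plasticity in the hippocampus depends on their activity. The genes of the constitutive subunits are known to be raised together by the transcription factor NFE2L1 when proteasome activity falls short.

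Counts assigned to genes totalled 6012116 to 12496651 in vehicle and 10938521 to 17763893 in PM libraries. Counts assigned to no feature took 60.9% to 62.0% of all counts in vehicle and 18.8% to 34.0% in PM, without overlap. Ambiguous counts took 0.538% to 0.582% in vehicle and 1.21% to 1.42% in PM, also without overlap. These shares therefore cannot be told apart from the group. Levels are given as CPM, read counts scaled to a common normalised library size. Markers of hippocampal neurons were high in every library, summing to 8116 to 9354 CPM in vehicle and 7938 to 9334 CPM in PM, with 2 of 6 called higher and 3 lower. Of markers of other cells, those of microglia summed to 195 to 221 CPM in vehicle and 264 to 390.0 CPM in PM (6 of 8 higher), and those of endothelium to 26.5 to 31.1 and 58.4 to 83.4 CPM (2 of 2 higher), both without overlap. Sums overlapped for markers of astrocytes (917 to 987 and 789 to 1501 CPM, 1 of 3 higher and 1 lower), oligodendrocytes (3390 to 4319 and 3501 to 8102 CPM, 2 of 3 higher) and choroid plexus (65.8 to 1207 and 30.1 to 2463 CPM, 1 of 3 tested lower). Of the blood markers, Hba-a1 and Hbb-bs were listed at 0 in every library, and Alas2 fell from 15.96 to 5.33 CPM. The part of library composition and of these cell types in the results below was not tested. In bulk tissue, a change in the number of cells of a type and a change in RNA per cell cannot be told apart.

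Proteasome subunit genes were mostly higher in PM than in vehicle libraries. Of the 36 genes, 34 passed the filter on low counts and were tested. Of these 30 were higher, 0 lower and 4 did not pass (edgeR quasi-likelihood test with the set as covariate, Benjamini-Hochberg adjusted p threshold 0.05 over 14982 genes). Of all tested genes, 32.7% were higher, 36.4% lower and 30.9% did not pass. The median log2 fold change of the 34 genes was 1.17, against -0.045 over all tested genes, and 21 of them rose by more than 2-fold, where 11.6% of all tested genes did. In 29 of the 34, every PM library lay above every vehicle library, which held for 24.3% of all tested genes, and in 0 every PM library lay below, which held for 28.1%. Summed over the 36 genes, the level was 1479 to 1564 CPM in the 5 vehicle libraries and 2752 to 3900.0 CPM in the 6 PM libraries.

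**Figure D1:**
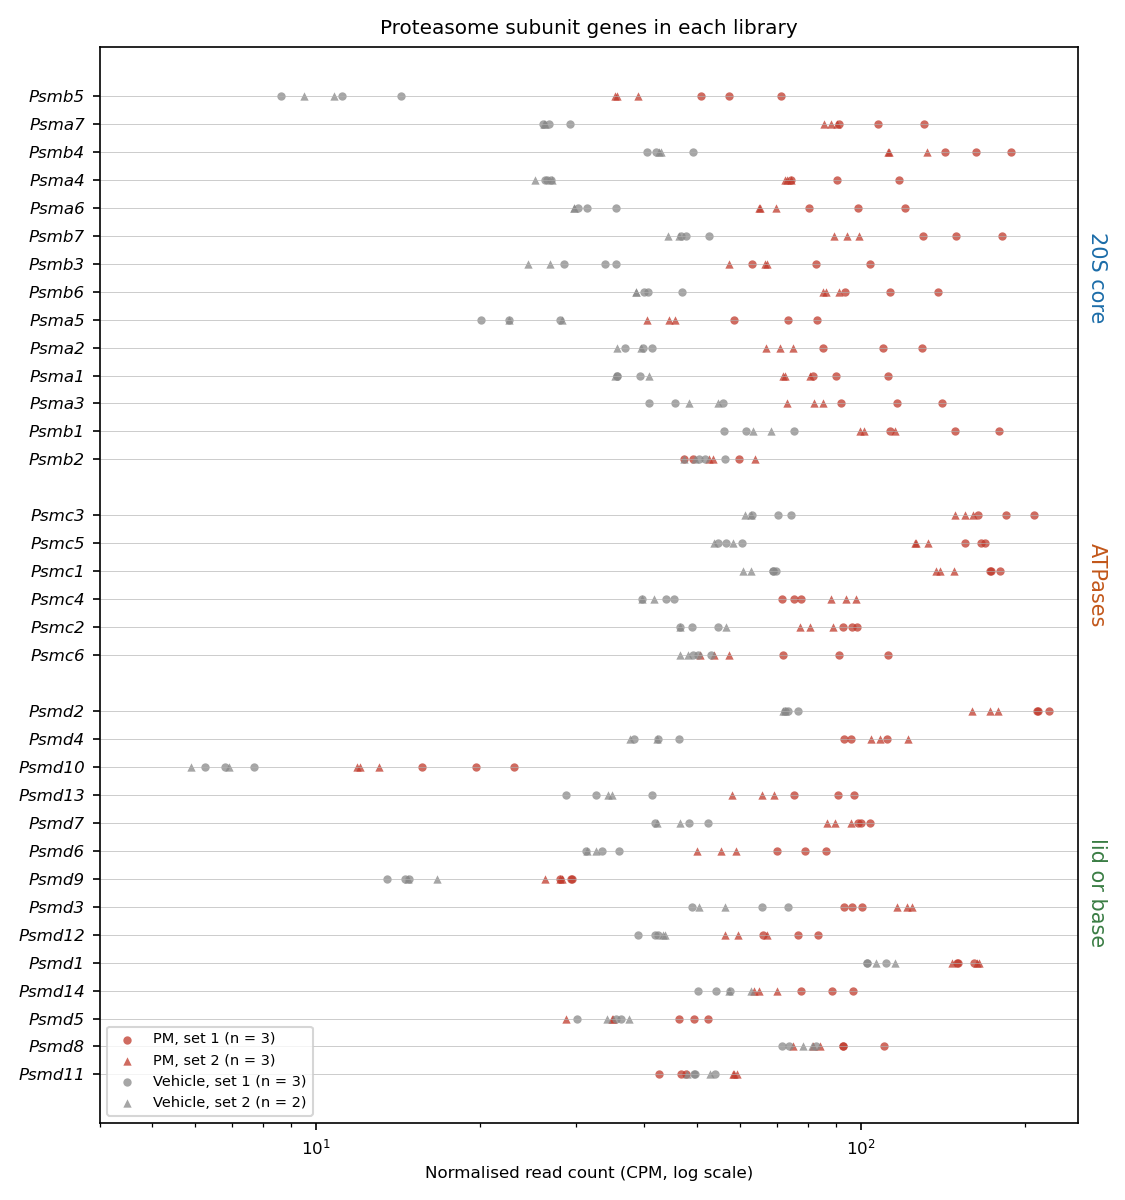
Normalised read count (CPM, log scale) of the 34 tested proteasome genes in each library, by class, with circles for set 1 and triangles for set 2. PM points lie to the right of all vehicle points in 29 rows, and Psmb2, Psmc6, Psmd5, Psmd8 and Psmd11 overlap.

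Promoters of the members were searched for the core of the antioxidant response element, TGACNNNGC, to which NFE2L1 and its relatives bind, in the 250 bases before the first listed RefSeq start (GRCm38.p6), on both strands. Promoters were matched for 29 of the 36 genes. A match was found in 5 of the 29 (17.2%), against 10.1% of 27025 promoters. The 5 windows are shown because they are the members' matches, with the match in capitals and up to 20 bases on each side within the window, written 5′ to 3′ along the gene's own strand. In Psmc6 and Psmd12 the match is on the other strand, so that its reverse complement is seen. The window of Psmb6 ends at the start site.
Psmb5, chr14:54618014-54618062, minus strand: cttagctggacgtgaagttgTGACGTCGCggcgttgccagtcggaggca
Psmb6, chr11:70525328-70525356, plus strand: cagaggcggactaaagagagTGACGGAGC
Psmc6, chr14:45329577-45329625, plus strand: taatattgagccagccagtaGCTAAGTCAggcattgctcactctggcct
Psmd9, chr5:123228139-123228187, plus strand: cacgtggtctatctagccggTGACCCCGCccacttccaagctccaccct
Psmd12, chr11:107479278-107479309, plus strand: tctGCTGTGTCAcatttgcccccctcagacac

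The match begins 47 bases before the start in Psmb5, 9 in Psmb6, 31 in Psmd9, 227 in Psmc6 and 247 in Psmd12. These 5 genes span much of the range of the members, with log2 fold changes of 2.17 for Psmb5, 1.33 for Psmb6, 0.93 for Psmd9, 0.71 for Psmd12 and 0.56 for Psmc6. The CCAAT box, searched in the same way, was in 12 of the 29 promoters (41.4%) and in 34.5% of all. By class it was in 7 of the 12 core promoters matched, 2 of the 5 of ATPases and 3 of the 12 of Psmd genes. The 7 include Psmb11, which was too low to test. A match is a description of the sequence, and no match says only that the letters are not in this window.

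The active sites of the core are carried by Psmb5, Psmb6 and Psmb7, and all 3 genes rose. Psmb5, which encodes the chymotrypsin-like site, stood at 11.2, 8.60, 14.3, 9.48 and 10.8 CPM in vehicle replicates 1 to 5. In PM replicates 1 to 6 it stood at 50.8, 57.3, 71.4, 39.0, 35.6 and 35.4 CPM. The lowest PM library was thus above the highest vehicle library, and the set 1 PM libraries were the highest. The means were 10.9 ± 2.17 CPM in vehicle (SD, n = 5) and 48.2 ± 14.4 CPM in PM (SD, n = 6), the largest rise among the members at 4.51-fold (log2 fold change 2.17 with SE 0.155, edgeR adjusted p = 4.758e-08). Psmb6, of the caspase-like site, had 40.0, 46.9, 40.6, 38.6 and 38.7 CPM in vehicle and 85.2 to 139 CPM in PM (median 92.3), a 2.51-fold rise (log2 fold change 1.33 with SE 0.107, edgeR adjusted p = 1.386e-07). Psmb7, of the trypsin-like site, had 52.7, 47.8, 46.8, 44.3 and 46.4 CPM in vehicle and 89.2 to 181 CPM in PM (median 115), a 2.62-fold rise (log2 fold change 1.39 with SE 0.124, edgeR adjusted p = 3.588e-07). For both genes the PM libraries lay above all vehicle libraries.

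The other Psmb subunits of the inner rings have no active site, and their values differed. Psmb4 rose 3.29-fold, from 49.2, 42.0, 40.5, 42.5 and 42.9 CPM in vehicle to 112 to 189 CPM in PM (median 137; log2 fold change 1.72 with SE 0.113, edgeR adjusted p = 2.512e-08). Psmb3 had a log2 fold change of 1.33. Psmb1 had the smallest rise among the core genes that passed, from 61.5, 75.5, 56.1, 63.3 and 68.2 CPM in vehicle to 99.7 to 179 CPM in PM (median 114; log2 fold change 0.97 with SE 0.138, edgeR adjusted p = 2.98e-05), also without overlap. Psmb2 was the core gene that did not pass. It stood at 51.6, 50.5, 56.4, 47.4 and 49.7 CPM in vehicle and at 47.3, 49.2, 59.6, 64.0, 53.4 and 52.6 CPM in PM, and the groups overlapped (log2 fold change 0.08 with SE 0.0942, edgeR adjusted p = 0.4447). Psmb2 lies on chromosome 4 (126677630 to 126709714, GRCm38), and no near-identical copy of its transcript was found in the annotation.

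All 7 Psma genes tested, which form the gated outer rings, rose, with log2 fold changes from 1.00 for Psma3 to 1.89 for Psma7. Psma7 had 26.1, 26.8, 29.2, 26.3 and 26.2 CPM in vehicle and 85.5 to 131 CPM in PM (median 90.9), a 3.71-fold rise (log2 fold change 1.89 with SE 0.102, edgeR adjusted p = 5.692e-09). The vehicle values lay close together and far below PM. The log2 fold change was 1.68 for Psma4, 1.43 for Psma6, 1.24 for Psma5, 1.22 for Psma2 and 1.19 for Psma1. In each of the 7 genes the PM libraries lay above all vehicle libraries.

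The 6 ATPase genes all rose, from 1.47-fold for Psmc6 to 2.59-fold for Psmc3, with a median log2 fold change of 1.12. Psmc3 had 74.5, 63.2, 70.3, 62.8 and 61.2 CPM in vehicle and 149 to 208 CPM in PM (median 162; log2 fold change 1.38 with SE 0.0829, edgeR adjusted p = 1.214e-08). Psmc5 had 56.5, 54.6, 60.6, 53.8 and 58.2 CPM in vehicle and 126 to 169 CPM in PM (median 144; log2 fold change 1.37 with SE 0.0822, edgeR adjusted p = 1.141e-08). Both genes separated the groups. Psmc1 had the smallest adjusted p of all members, with 68.9, 69.8, 69.0, 60.8 and 62.9 CPM in vehicle and 137 to 179.8 CPM in PM (median 160.3; log2 fold change 1.28 with SE 0.0672, edgeR adjusted p = 4.93e-09). Psmc2 had 49.0, 54.6, 46.6, 46.6 and 56.6 CPM in vehicle and 77.3 to 98.5 CPM in PM (median 90.9; log2 fold change 0.82 with SE 0.0883, edgeR adjusted p = 2.138e-06), and Psmc4 rose 1.96-fold. Psmc6 was the ATPase gene whose groups overlapped. It had 49.2, 50.2, 53.1, 46.6 and 48.1 CPM in vehicle and 71.8, 91.2 and 112 CPM in the set 1 PM libraries, but 57.2, 50.7 and 53.6 CPM in those of set 2 (log2 fold change 0.56 with SE 0.138, edgeR adjusted p = 0.002546). The set 1 PM libraries were thus all above vehicle, and those of set 2 reached into its range.

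Of the 14 Psmd genes 11 rose and 3 did not pass, with a median log2 fold change of 0.90. Psmd2, the large scaffold of the base to which ubiquitin receptors and shuttle proteins dock, had the largest rise. Its vehicle values were close together at 72.5, 73.5, 76.6, 72.4 and 71.9 CPM, and its PM values were 211, 221 and 211 CPM in set 1 and 178, 159.7 and 172 CPM in set 2, all above vehicle. The rise was 2.64-fold (log2 fold change 1.40 with SE 0.0781, edgeR adjusted p = 6.909e-09). Psmd4, a ubiquitin receptor, rose 2.54-fold, from 38.3, 42.5, 46.4, 37.6 and 42.3 CPM in vehicle to 93.2 to 122 CPM in PM (median 106; log2 fold change 1.34 with SE 0.0935, edgeR adjusted p = 3.898e-08). Psmd1, the other large base scaffold, rose 1.44-fold, and Psmd14, the lid enzyme that removes ubiquitin chains, 1.37-fold (edgeR adjusted p = 0.00233), both with no overlap of the groups. The lid genes Psmd3, Psmd6, Psmd7, Psmd12 and Psmd13 rose between 1.63-fold for Psmd12 and 2.23-fold for Psmd13.

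Psmd11 and Psmd8, both of the lid, did not pass. Psmd11 had 49.6, 53.9, 49.3, 47.9 and 52.8 CPM in vehicle. In PM it had 47.7, 46.8 and 42.6 CPM in set 1 and 58.6, 58.2 and 59.1 CPM in set 2, so that PM libraries lay below vehicle in one set and above it in the other (log2 fold change 0.01 with SE 0.0871, edgeR adjusted p = 0.9456). Its sign turned without vehicle replicate 4 (-0.057) or 5 (-0.017) and without PM replicate 4 (-0.009) or 5 (-0.006). Psmd8 had 73.8, 82.5, 71.6, 81.4 and 78.4 CPM in vehicle and 75.1 to 110.1 CPM in PM (median 88.2), with overlap (log2 fold change 0.21 with SE 0.0923, edgeR adjusted p = 0.05595). It passed the threshold with DESeq2 size factors (edgeR adjusted p = 0.04523), in the DESeq2 Wald test (adjusted p = 0.03591), with no filter on low counts (edgeR adjusted p = 0.01858) and without the rows Rn45s, Lars2 and Mir6236 (edgeR adjusted p = 0.007758). It also passed without vehicle replicate 4 (0.03568) or 5 (0.04947) or PM replicate 5 (0.0304) or 6 (0.04876). Within sets, its log2 fold change was 0.373 in set 1 (edgeR adjusted p = 0.002163) and 0.007 in set 2 (edgeR adjusted p = 0.9611). With the trend of counts on transcript length and GC content removed, described below, Psmd8 was instead lower in PM, at -0.434 (edgeR adjusted p = 0.0006123).

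Psmd5, Psmd9 and Psmd10 match the symbol rule but encode assembly chaperones of the base, which leave before the particle is complete. Psmd10, an X-linked gene (chromosome X, 140948429 to 140956728), rose 2.41-fold from a low level, with 6.26, 6.79, 7.68, 5.88 and 6.92 CPM in vehicle and 11.9 to 23.1 CPM in PM (median 14.3; log2 fold change 1.27 with SE 0.145, edgeR adjusted p = 3.737e-06). Psmd9 had a log2 fold change of 0.93. Psmd5 had 35.6, 36.2, 30.1, 34.2 and 37.5 CPM in vehicle. Its PM values were 49.4, 46.3 and 52.4 CPM in set 1, above vehicle, and 35.0, 28.8 and 34.9 CPM in set 2, within or below the vehicle range (log2 fold change 0.25 with SE 0.126, edgeR adjusted p = 0.09289). Without vehicle replicate 5 or without PM replicate 5, Psmd5 passed the threshold (edgeR adjusted p = 0.0241 and 0.02864). It also passed with no filter on low counts (edgeR adjusted p = 0.03592) and without Rn45s, Lars2 and Mir6236 (edgeR adjusted p = 0.02214).

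The remaining 2 genes are core subunits of other tissues and were not tested. Psma8, of the testis, had 13 counts over the 5 vehicle and 34 over the 6 PM libraries, and Psmb11, of the thymus, 9 and 26 counts. Where a library had a count of 0, up to 3 counts are allowed, equal to 0.169 to 0.499 CPM depending on the library and for counting error only. With at most 0.659 CPM in any library, no difference of these genes was detectable at this depth.

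Levels of different genes were compared per length, as CPM per kilobase (kb) of annotated transcript. In vehicle the 14 constitutive core genes ran from 12.1 CPM per kb for Psmb5 to 59.5 for Psmb2, the ATPases from 22.1 for Psmc6 to 43.1 for Psmc5, and the Psmd genes from 4.69 for Psmd10 to 51.3 for Psmd8. The 3 chaperone genes were the lowest Psmd genes, with 7.89 CPM per kb for Psmd5 and 5.72 for Psmd9. In PM, Psmb5 reached 53.7 CPM per kb, between Psma5 (46.4) and Psmb2 (63.3), and Psmb6 was the highest of the core at 127. Psmb2 and Psmd8, the highest of their classes in vehicle, were among the 4 members that did not pass. The SD of log2 levels per length over the 14 core genes was 0.654 to 0.739 in vehicle and 0.618 to 0.688 in PM libraries, ranges that overlap. Lengths are those of 1 annotated transcript per gene (2911 bases for Psma2 and 2846 for Psma3), and a level per length depends on which transcript is taken.

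The median level per length of each class separated the groups. For the core it was 29.1 to 31.9 CPM per kb in vehicle and 61.8 to 101 in PM, and the highest values were those of PM replicates 2 and 3 (80.9 and 101). For the ATPases it was 33.6 to 37.3 in vehicle and 73.7 to 84.1 in PM, and for the Psmd genes 23.5 to 25.0 and 38.6 to 50.3. The ratio of the core median to the ATPase median was 0.804 to 0.905 in vehicle. It was 0.847, 0.800 and 0.839 in PM replicates 4 to 6, 0.860 in PM replicate 1, 1.00 in PM replicate 2 and 1.21 in PM replicate 3.

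**Figure D2:**
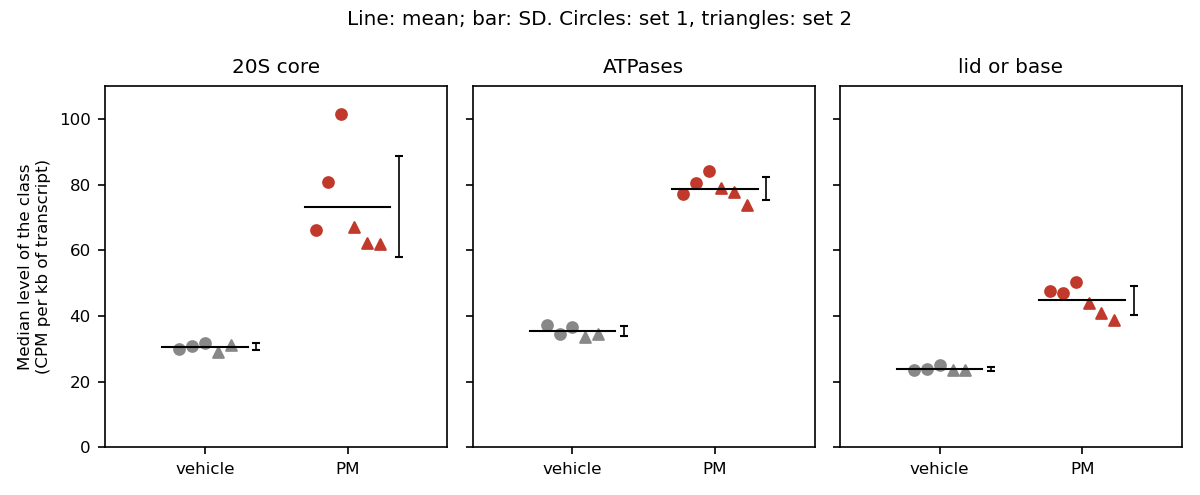
Median level per length (CPM per kb of transcript) of the 14 constitutive core genes, the 6 ATPases and the 14 Psmd genes in each library, with circles for set 1 and triangles for set 2; lines are means and bars SD over 5 vehicle and 6 PM libraries. In each panel all PM points lie above all vehicle points, and PM core values of set 1 spread from 66.2 to 101.

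Within each deposit set the genes were again mostly higher in PM. In set 1, 32 of 34 were higher and 0 lower, with a median log2 fold change of 1.32, where 32.1% of all tested genes were higher and 38.9% lower. In set 2, 28 were higher and 0 lower, with a median of 0.95, where 32.3% of all tested genes were higher and 32.5% lower. The number higher in both sets was 28. By library, taken as the median log2 level of the 34 genes against the vehicle mean, PM replicates 1 to 3 stood at 1.13, 1.26 and 1.49 and PM replicates 4 to 6 at 0.96, 0.96 and 0.89, while the 5 vehicle libraries lay between -0.07 and 0.02.

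The size of the effect differed between the sets for 11 of 34 genes (edgeR test of the difference, adjusted p threshold 0.05). It did so for 29.6% of all tested genes, a similar share. In 8 of the 11 the log2 fold change was smaller in set 2. In Psmc4, Psmd3 and Psmd11 it was larger, as it was for 17.5% of all tested genes. Psma5 had the widest gap, 1.601 in set 1 and 0.77 in set 2 (difference -0.84, edgeR adjusted p = 0.00962). Psmd5 had 0.54 and -0.13 (edgeR adjusted p = 0.006787), Psmc6 0.85 and 0.18 (edgeR adjusted p = 0.01621), and Psmd14 0.70 and 0.145 (edgeR adjusted p = 0.01077). In the opposite direction, Psmd3 had 0.62 and 1.18 (edgeR adjusted p = 0.0264). The count of 11 rested on single libraries. It was 5 without vehicle replicate 1, vehicle replicate 4 or PM replicate 2, 6 without vehicle replicate 3 or PM replicate 5, and 7 without PM replicate 3. Without vehicle replicate 5 it was 1, and without PM replicate 1 it was 23. Vehicle libraries of set 1 held 191 to 220.5 CPM of 4 Y-linked genes and at most 3.16 CPM of Xist, and those of set 2 held 0 CPM and 2277 to 2422 CPM, while PM libraries of both sets were mixed. In vehicle, set and the level of sex-linked genes cannot be told apart.

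**Figure D3:**
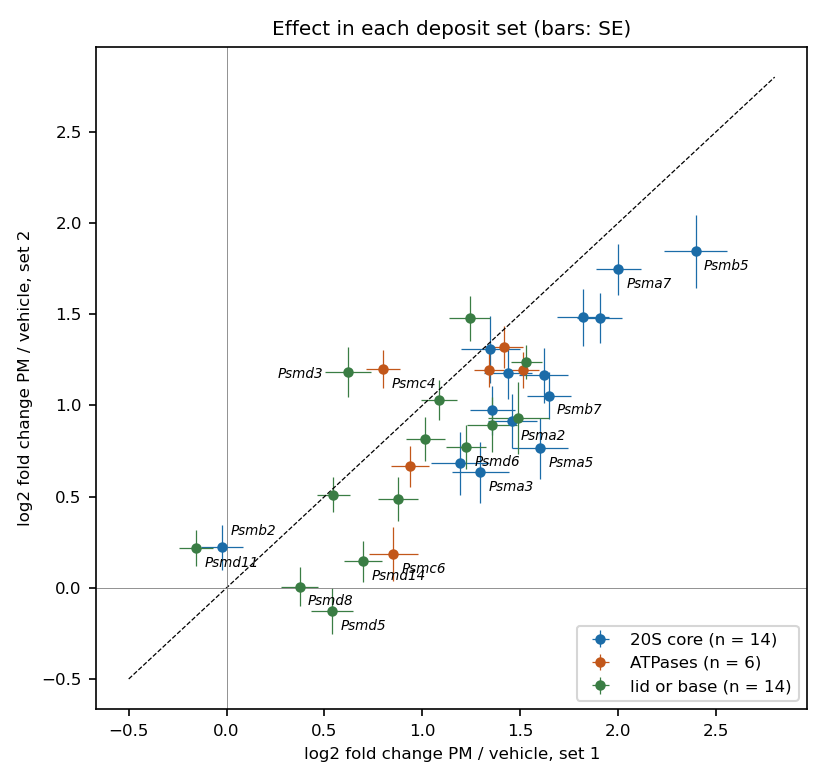
Log2 fold change of PM over vehicle in set 1 (x axis) and set 2 (y axis) for the 34 tested genes, coloured by class, with SE bars and a dashed line of equal effect. Most points lie below the line. Psmb2, Psmc4, Psmd3 and Psmd11, named in the plot, lie above it, as does Psmd4.

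Proteasome transcripts are mostly short, and fold changes in these libraries varied with length. The median annotated transcript of the tested members was 1526.5 bases, against 3001 over all tested genes. Over the 34 members the log2 fold change had a Spearman rho of -0.541 with length and 0.293 with GC content, and over 14857 tested genes -0.476 and 0.387. These are correlations across genes of the same libraries, given as a description. With the trend of counts on length and GC content removed in each library, 31 of the 34 were higher, 2 lower and 1 did not pass, where 30.4% of all tested genes were higher and 32.9% lower, and the median was 0.71. The core had a median of 0.95, the ATPases 0.74 and the Psmd genes 0.68.

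Single genes changed place when this trend was removed. Psmb2 was then lower in PM, at -0.56 (SE 0.0920, edgeR adjusted p = 0.00014), and so was Psmd8, at -0.43 (SE 0.0859, edgeR adjusted p = 0.0006123). Psmd5 was higher, at 0.70 (SE 0.0954, edgeR adjusted p = 2.791e-05), and Psmd11 stood at 0.09 (edgeR adjusted p = 0.394). Psmb5 fell from first place to 1.19, below Psma2 (1.54), Psmd2 (1.33), Psma4 (1.31), Psma3 (1.28) and Psma7 (1.21). Such places depend on the transcript taken for each gene, 2911 bases for Psma2, 2846 for Psma3 and 859 for Psmb2. With the trend removed, the Spearman rho of log2 fold change with length was 0.003 over the 34 members. By class it was 0.508 in the core, 0.143 in the ATPases and 0.196 in the Psmd genes, so longer core genes then tended to stand higher. The log2 fold change shrank by over 1.5 times for 15 of the 30 genes that were higher. In the core these were Psmb5, Psma7, Psmb4 (1.06), Psmb7 (0.915), Psma5 (0.77), Psmb3 (0.50) and Psmb6 (0.37). In the cap they were Psmc5 (0.798), Psmc3 (0.675), Psmc4 (0.31), Psmd13 (0.705), Psmd7 (0.69), Psmd4 (0.55), Psmd14 (0.27) and Psmd3 (0.22).

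**Figure D4:**
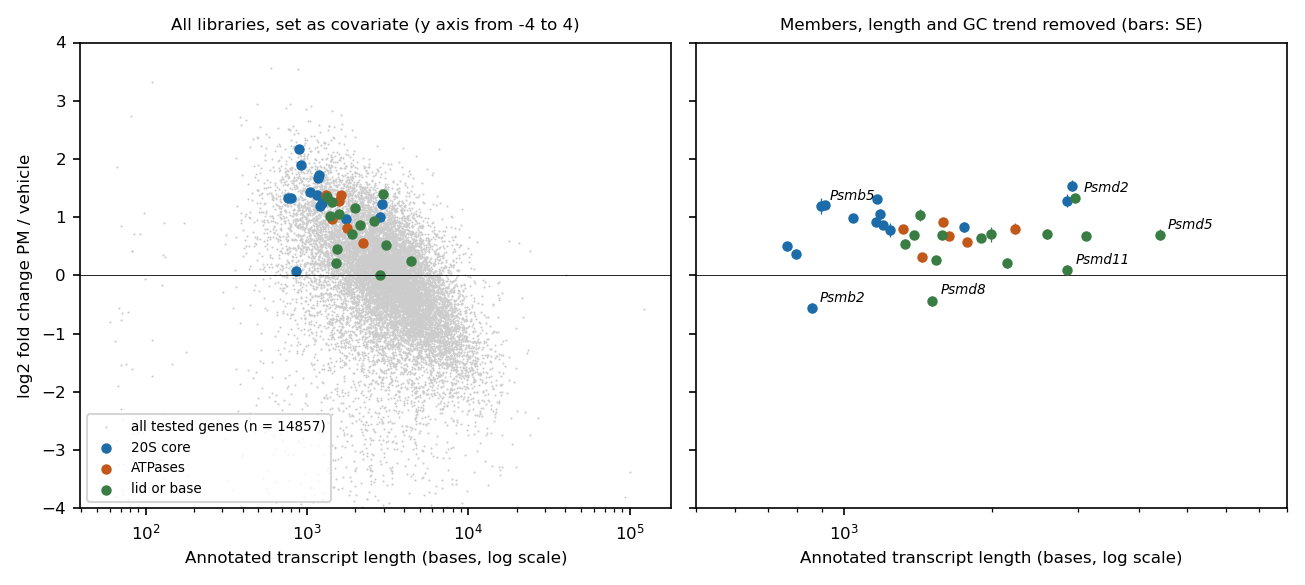
Log2 fold change of PM over vehicle against annotated transcript length (bases, log scale), with all tested genes in grey and the proteasome genes coloured by class (left; some of all genes lie beyond the y axis), and the 34 genes with the length and GC trend removed, with SE bars (right). Most members lie in the shorter part of a falling cloud on the left, and on the right Psmb2 and Psmd8 lie below 0.

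Some members have near-identical copies elsewhere, or overlap another gene. For 8 members, a transcript of another gene matched over at least 200 bases at 95% identity or more, 16 copies in all, mostly processed pseudogenes. Psmb5 (chromosome 14, 54614119 to 54618022, GRCm38) has such a copy on chromosome 7, Gm3375 (98.9% over 796 bases), and its exons also hold the microRNA row Mir686. Psma3 has 4 copies and Psmb3 has 3. Only 2 of the copies have a row in the files. One is A730017L22Rik, 97.9% identical to Psmd11 over 1501 bases, which fell from 19.1 to 9.56 CPM (log2 fold change -1.11, edgeR adjusted p = 5.408e-05). The other, Gm609 of Psma3, had 15 counts in vehicle and 16 in PM. Alignments that were not unique took 4.21% to 4.75% of all counts in vehicle and 7.22% to 9.90% in PM. Exons of 9 members share bases with another annotated gene. The widest overlap is that of Psmd9 with Gm26745 on the opposite strand (1849 bases), and Gm26745 has no row of its own among the counts. Psmb7 with Nek6 (405 bases) and Psmd13 with Sirt3 (342 bases) also overlap on opposite strands. Which strand was counted is unknown here, so such pairs are uncertain.

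The genes that regulate, assemble and supply the proteasome moved in both directions. Of 38 such genes outside the members, 24 were higher, 7 lower and 7 did not pass, with a median log2 fold change of 0.45. Of all tested genes, 32.7% were higher and 36.4% lower, with a median of -0.045. The effect differed between the deposit sets for 12 of the 38, where 29.6% of all tested genes differed, a similar share. The 5 factors that build the core all rose in the fit of all libraries. Psmg3, of a chaperone pair that helps form the outer ring, rose 5.43-fold, with 1.35, 2.53, 1.81, 2.13 and 1.54 CPM in vehicle and 6.98 to 13.0 CPM in PM (median 9.26; log2 fold change 2.44 with SE 0.189, edgeR adjusted p = 1.004e-07). Its partner Psmg4 rose 2.84-fold, and Pomp, which helps mature the core, 2.32-fold. Psmg1 and Psmg2, the other pair, rose 1.45-fold and 1.54-fold. Once length and GC were accounted for they stood at -0.11 (edgeR adjusted p = 0.4464) and 0.21 (edgeR adjusted p = 0.0759). The groups overlapped for Psmg1, whose log2 fold change was 0.781 in set 1 and 0.187 in set 2 (edgeR adjusted p = 0.0001304 and 0.3615).

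Activators other than the 19S cap were split. Psme2, of the interferon-inducible ring, rose from 5.33 to 8.50 CPM in vehicle to 24.1 to 34.2 CPM in PM (4.27-fold, edgeR adjusted p = 2.401e-08), and its partner Psme1 rose 1.53-fold. Psme1 turned to -0.245 with length and GC accounted for. Psme3, of the nuclear ring of the same family, had 177, 184, 168, 166 and 175 CPM in vehicle and 91.6 to 108 CPM in PM (median 99.1), a fall without overlap (log2 fold change -0.80 with SE 0.0711, edgeR adjusted p = 3.273e-07). Psme4, the large single-chain activator, fell to 59.1 ± 16.3 CPM (SD, n = 6) in PM where vehicle had 114 ± 11.9 CPM (SD, n = 5). Its log2 fold change was -1.353 in set 1 and -0.639 in set 2 (edgeR test of the difference, adjusted p = 0.005237). With the trend removed Psme4 was at -0.15 (edgeR adjusted p = 0.4028). Psmf1, an inhibitor of the core in the test tube, rose 1.25-fold. The 3 interferon-induced core subunits, which replace the active-site subunits, all rose. The log2 fold changes of Psmb8, Psmb9 and Psmb10 were 2.75, 1.755 and 1.378 (edgeR adjusted p = 1.283e-06, 0.0002369 and 2.718e-06). Psmb8 and Psmb9 were low, with 30 and 21 counts over the 5 vehicle and 371 and 133 over the 6 PM libraries. Their fold changes are therefore imprecise, with SE 0.281 and 0.317. Per length, Psmb8, Psmb9 and Psmb10 had 0.405, 0.338 and 9.12 CPM per kb in vehicle and 2.67, 1.15 and 23.5 in PM. Psmb5, Psmb6 and Psmb7 had 12.1, 51.3 and 41.0 in vehicle and 53.7, 127 and 107 in PM.

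Among proteins that sit on the proteasome, Shfm1, a small lid subunit whose symbol lies outside the rule, rose 2.79-fold and Uchl5, a deubiquitinase, 1.99-fold. The log2 fold change of Shfm1 was 1.996 in set 1 and 0.78 in set 2 (edgeR test of the difference, adjusted p = 0.002243). The ubiquitin receptor Adrm1 rose 1.36-fold but was at -0.47 with the trend removed. AI314180, the Ecm29 homologue that binds core and cap, had 198, 217, 201, 210.0 and 218 CPM in vehicle and 80.9 to 86.3 CPM in PM (log2 fold change -1.34 with SE 0.0647, edgeR adjusted p = 2.864e-09), the smallest adjusted p of the 38. Its fall was -0.37 on the log2 scale with the trend removed.

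Nfe2l1, the activator of proteasome genes, rose 1.37-fold. It had 197, 188, 213, 195 and 196 CPM in vehicle and 226 to 309.6 CPM in PM (median 269; log2 fold change 0.45 with SE 0.0797, edgeR adjusted p = 0.0002066), without overlap. Ddi2, the protease that cuts NFE2L1 into its active form, fell 3.85-fold, with 24.1, 19.4, 25.1, 24.5 and 24.6 CPM in vehicle and 5.16 to 7.84 CPM in PM (edgeR adjusted p = 1.772e-08), and stood at a log2 fold change of -0.83 with the trend removed. Akirin2, which brings proteasomes into the nucleus, rose 1.33-fold but was at 0.06 with the trend removed (edgeR adjusted p = 0.375). Within sets, its log2 fold change was 0.573 in set 1 and 0.189 in set 2 (edgeR adjusted p = 2.564e-05 and 0.1234). Nfe2l2, a relative of Nfe2l1, had a log2 fold change of -0.29 (edgeR adjusted p = 0.03682). It missed the threshold with DESeq2 size factors (edgeR adjusted p = 0.05887) and in the DESeq2 Wald test (adjusted p = 0.06388). It also missed it with no filter (edgeR adjusted p = 0.1822), the replicate block (0.1808) or the trend removed (0.08164). The same held without Rn45s, Lars2 and Mir6236 (edgeR adjusted p = 0.1573) and in 7 of the 11 fits that left out 1 library.

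Of the genes that supply ubiquitin and deliver substrates, Rps27a, which fuses ubiquitin to a ribosomal protein, rose 7.72-fold. Its log2 fold change was 3.455 in set 1 and 2.305 in set 2 (edgeR test of the difference, adjusted p = 0.01246). The polyubiquitin gene Ubb rose 3.11-fold, from 17.4 to 41.0 CPM in vehicle to 80.0 to 109.8 CPM in PM. Vcp, the unfoldase that delivers substrates, rose 1.78-fold, and the shuttle gene Ubqln2 had a log2 fold change of -0.54. With the trend removed the values of Psmg3 (1.47), Psmg4 (0.65), Psme2 (1.35), Psmb9 (0.96), Psmb10 (0.48) and Ubb (0.95) were smaller by over 1.5 times, and that of Psmf1 (0.51) was larger.

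**Figure D5:**
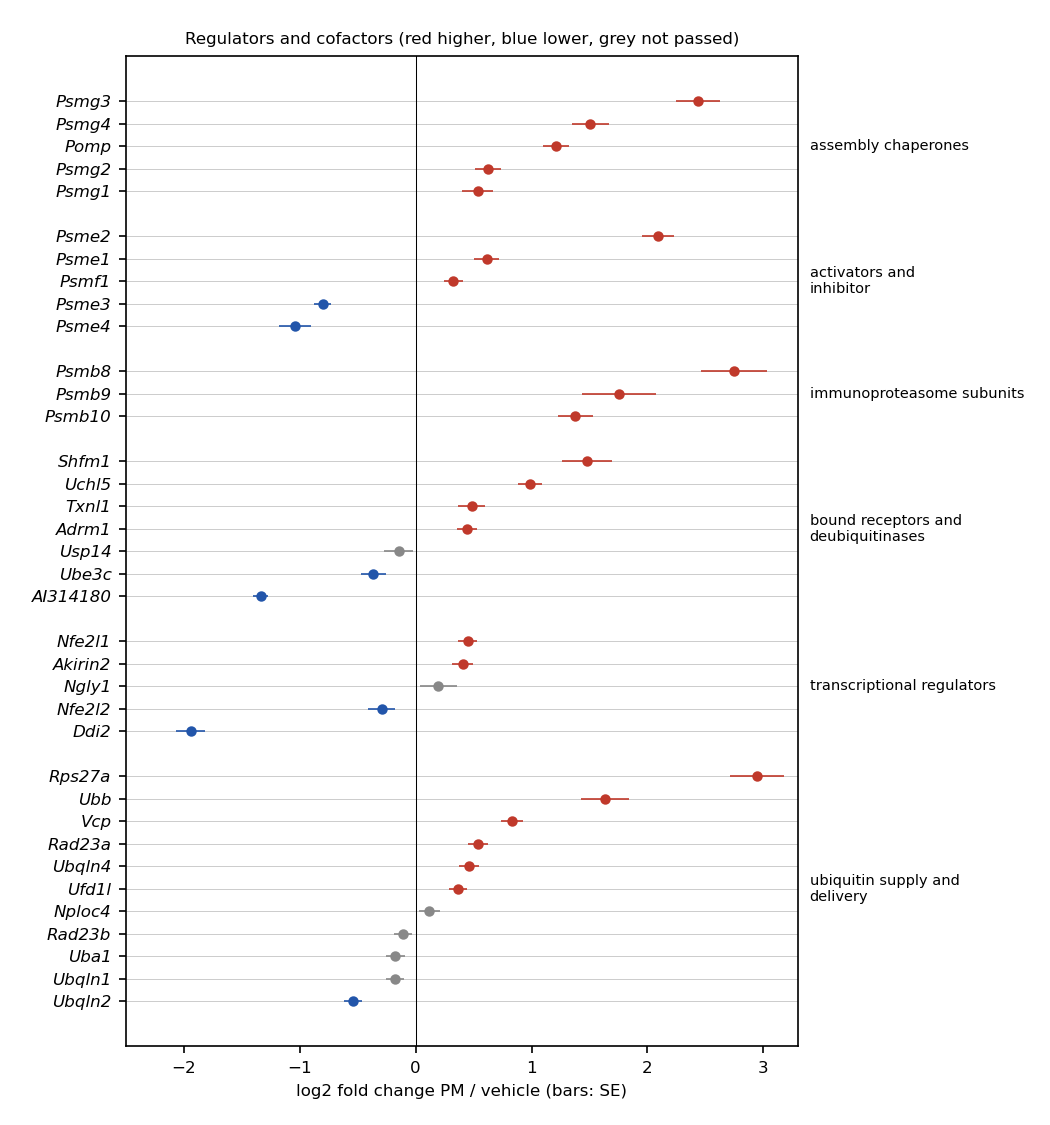
Log2 fold change of PM over vehicle with SE bars for 36 of the 38 regulators and cofactors of the proteasome, by functional group. Assembly chaperones and interferon-induced subunits lie to the right of 0, and the other groups hold genes on both sides.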

How the data were processed

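RNA of the hippocampus was measured in 11 libraries. The authors deposited 1 file of read counts per library, whole numbers that were not normalised. FastQC 0.11.9, Trimmomatic 0.36, STAR, SAMtools 1.9, Picard 2.9.2, HTSeq 0.9.1 and the builds mm10 and hg19 appear in the submitters' processing notes. Annotation and strand setting are not given in the sources used here. In set 2 the treatment field names particulate matter for every library, so groups follow titles and characteristics. The 5 HTSeq summary rows stayed out of library sizes and tests. Precision follows the counts per library, 6012116 to 17763893.

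Counts were analysed in R 4.3.3 with edgeR 4.0.16 (filterByExpr with a minimum count of 10, TMM scaling, robust quasi-likelihood test, two-sided, set as covariate, all 14982 genes). Standard errors were taken from the F statistic. For effects by set, groups and sets were fitted jointly. Alternatives were DESeq2 1.42.0, its size factors, no filter, no set term, a replicate block, each set alone, removal of a spline trend on transcript length and GC (5 degrees of freedom each), and leaving out each library. Leaving out Rn45s, Lars2 and Mir6236 was added after seeing the data. The fit was tested on simulated data. Libraries of a group differed by more than sampling noise (chi-square per degree of freedom at least 2.01), so none was merged. GENCODE M21 (GRCm38) matched 98.5% of symbols. Promoters are RefSeq's.

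Genes given by library are the 3 active-site subunits, in each class the 3 largest and 2 smallest log2 fold changes and the highest level per length, and members that did not pass. Also named are up to 4 genes of smallest p per pathway list, the interferon-induced subunits, activators, Psmf1 and Nfe2l1. Other genes were named after their values were seen. Members, lists and tests were chosen with earlier results of these data known. The values of 2 genes of the pathway list are not reported here.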

Additional observations from a re-analysis of the deposited data

Results flagged for a closer look

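The effect of PM differed between the deposit sets for 11 of 34 members (edgeR test of the difference, adjusted p below 0.05). Of all tested genes 29.6% differed, a similar share, so such differences are not particular to the members. With 1 library left out, the count of members was 1 to 23. Values are given here as the log2 fold change in set 2 minus that in set 1. The difference was negative for Psma5 (-0.84), Psmc6 (-0.67), Psmd5 (-0.67), Psma3 (-0.66), Psmb7 (-0.59), Psmd14 (-0.55), Psma2 (-0.55) and Psmd6 (-0.45). It was positive for Psmd3 (0.56), Psmc4 (0.40) and Psmd11 (0.37). Psmd11 was negative in set 1 (-0.16) and positive in set 2 (0.22).

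A single library stood far from the others of its group in 4 of 72 comparisons of a gene within a group, and about 1 in 20 is flagged by chance. They were Psma7 in vehicle replicate 3 (29.2 CPM, highest), Psmb4 in vehicle replicate 1 (49.2 CPM, highest), Psmb6 in vehicle replicate 2 (46.9 CPM, highest) and Psmb11 in vehicle replicate 4 (0 CPM, lowest, in the shallowest library).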

How the results depend on the processing

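The 30 members higher became 30 to 32 under every alternative run on both sets, and 0 were lower except with the length and GC trend removed, where 2 were lower with and without the replicate block. The median of 1.17 was then 0.71, or 0.80 with the block, and 1.16 to 1.27 under the other settings that kept both sets and did not single out a library. Without Rn45s, Lars2 and Mir6236 it was 1.27, while the median of all tested genes went from -0.045 to 0.056, with 36.9% of them higher and 32.4% lower. Leaving out 1 library gave 30 to 32 members higher, 0 lower, a median of 1.095 to 1.266, 24 regulators higher and 5 to 8 lower, 32 members higher in set 1 and 28 in set 2, and 1 to 23 members whose effect differed between sets. That last count was 18 with no filter on low counts. Signs turned with the trend removed, without and with the block, for Psmb2 (-0.557, -0.509), Psmd8 (-0.434, -0.389), Psme1 (-0.245, -0.17) and Adrm1 (-0.465, -0.396). Without the block they also turned for Psmg1 (0.535 to -0.109), Ube3c (-0.364 to 0.18), Usp14 (-0.148 to 0.537, edgeR adjusted p = 0.0001015) and Rad23b (-0.11 to 0.16). Psmd11 ranged from -0.057 to 0.051 with 1 library left out. The cause was not tested.

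Same-numbered libraries correlated at -0.176 to -0.005 in their deviations from the mean of group and set, and differently numbered ones at -0.067 to 0.176. The deviations of vehicle replicates 4 and 5 mirror each other, being the only vehicle libraries of set 2. These correlations therefore cannot decide whether the numbers pair libraries. With the replicate block, over replicates 1 to 5, 30 members were higher, 0 lower, and the median was 1.263, against 31 higher and 1.266 in the same libraries without it. Depth limits Psma8 and Psmb11.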
